A study of Mus musculus with 9 samples.

Results

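Ferritin is the cell's store of iron, a hollow protein shell built of heavy and light chains. Of the 46958 genes in the deposited count table, 10 are described here, taken by symbol: the ferritin light chain gene Ftl1, its processed pseudogenes Ftl2-ps and Gm12164, the heavy chain gene Fth1, the uptake genes Tfrc and Slc11a2, the exporter Slc40a1, the heme-degrading enzyme Hmox1, and the iron sensors Ireb2 and Aco1. All 10 are in the table and all 10 passed the filter on low counts, Ftl2-ps and Gm12164 only through the libraries of 1 genotype. The 3 light chain genes were brought together because of their levels in these libraries, so their values are a description with no test. The other 7 were chosen by role, with earlier results known.

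RNA was sequenced from spleen cells carrying CD138, a surface protein of plasma cells, taken from mice of 3 genotypes at 3 months of age and never immunized. Each genotype had 3 mice, each with its own library. All groups share a mixed C57/BL6x129/SVxBALB/c background. The labels give the genotypes only as WT, DH-LMP2A and kFRA (LCDD). As background, in the published mouse lines, DH-LMP2A places the LMP2A gene of Epstein-Barr virus in the heavy chain locus, and kFRA carries a light chain variable region from a patient with light chain deposition disease in the kappa locus. The labels do not say whether the kFRA mice also carry DH-LMP2A; genes of the heavy chain constant regions took 0.883 to 0.968% of the counts in kFRA, 1.09 to 1.16% in DH-LMP2A and 21.9 to 27.1% in WT. Cells were isolated with beads and were not pure. All 8 plasma cell markers checked were detected in all 9 libraries, Jchain at 14680 to 38650 CPM (the count relative to its library's total, scaled between libraries with edgeR's TMM factors).

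Iron enters a cell when transferrin receptor 1, the product of Tfrc, carries iron-loaded transferrin into endosomes, from which the divalent metal transporter encoded by Slc11a2 moves it into the cytosol. Iron that is not used is stored in ferritin or leaves through ferroportin, the product of Slc40a1. The regulatory proteins IRP1 and IRP2, encoded by Aco1 and Ireb2, bind hairpins in mRNAs when iron is scarce, which holds back translation of ferritin and ferroportin and protects the Tfrc mRNA from decay. In the spleen, red pulp macrophages take up old red cells, release iron from heme with heme oxygenase 1 (Hmox1) and are rich in ferritin and ferroportin.

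A processed pseudogene is a copy of an mRNA inserted elsewhere in the genome, so its sequence is close to that of its parent. Gm15590, a further light chain copy in the table (chr17:6131854-6132405, minus strand), is given for comparison. The sequences compared are those of the GENCODE M21 transcripts (GRCm38), and substitutions are written with the base of Ftl1, its position counted from 1 at the A of the start codon, and the base of the copy.

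Over the 552 coding bases, Ftl2-ps aligned to Ftl1 with 7 substitutions and no gap (98.73% identity), and Gm12164 with 17 substitutions, 3 bases absent and 2 extra (96.9%). Ftl2-ps and Gm12164 shared 5 substitutions, A307C, A401T, T402C, G468A and G504A. The last 2 were also among the 5 of Gm15590, whose identity to Ftl1 was 99.09%. The map of substitutions shows that Ftl2-ps has none before position 307, while Gm12164 differs from Ftl1 along its whole length.

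**Figure D1:**
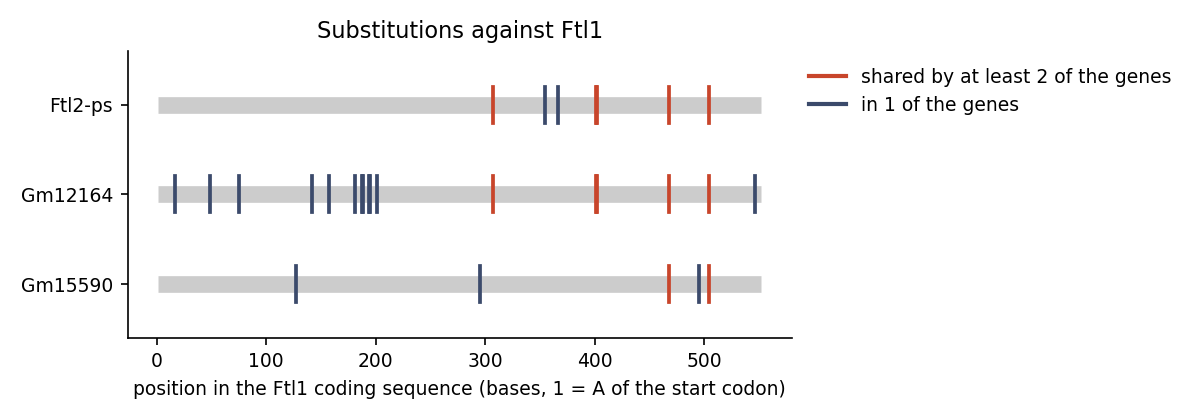
Positions of the substitutions of Ftl2-ps, Gm12164 and Gm15590 against the Ftl1 coding sequence (x axis, bases), red where at least 2 of the genes share the substitution and blue where 1 has it. The 7 substitutions of Ftl2-ps lie between positions 307 and 504, and 5 of them are shared with Gm12164.

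These differences decide how far a read can be placed. The reads were 75 bases long, per the labels, and 232 of the 478 windows of 75 bases in Ftl2-ps occur without a mismatch in Ftl1 too. Annotated microRNAs, some of which lie on these copies, were left out of the next counts. Only 87 windows of Ftl2-ps (18.2%) occur in no other annotated gene, against 293 of 477 (61.4%) in Gm12164 and 208 of 478 (43.5%) in Gm15590. Of the 478 windows in the Ftl1 coding sequence, 85 (17.8%) occur in no other gene. How reads that fit several places were counted is not given in the sources used here, so the split of counts between these genes is uncertain, and transcripts of Ftl1 and of its copies cannot be told apart where the sequences are identical.

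Ftl1 (ENSMUSG00000050708.16, chr7:45457944-45459884, minus strand) encodes the light chain, which aids the build-up of the iron core inside the shell. Its level was 3075, 2316 and 2585 CPM in WT, 2315, 3060 and 1312 CPM in DH-LMP2A, and 1046, 1059 and 1141 CPM in kFRA. All 3 kFRA libraries lay below every other library, while WT and DH-LMP2A overlapped. The fitted log2 fold change was −1.30 (SE 0.29) in kFRA against WT, −1.04 (SE 0.29) in kFRA against DH-LMP2A and −0.25 (SE 0.29) in DH-LMP2A against WT. With the mean log2 CPM of the macrophage markers (described below) as a covariate, the difference of kFRA from WT was −0.80 (SE 0.27). With the mean log2 CPM of erythroid markers it was −0.68 (SE 0.39). The difference of DH-LMP2A from WT changed sign with these covariates, to 0.31 (SE 0.29) and 0.48 (SE 0.44).

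Ftl2-ps (ENSMUSG00000082062.1, chr4:125504288-125504839, plus strand) is a single-exon copy whose reading frame has no gap against Ftl1. It had 8538, 12133 and 10369 counts in the kFRA libraries, 584, 577 and 650 CPM. In WT it had 0, 5 and 5 counts, and in DH-LMP2A 6, 9 and 4. The signal was therefore nearly confined to the kFRA libraries, with 31040 of its 31069 counts there. The mean CPM of kFRA was 3159 times that of WT, which rests on 10 WT counts in all, and 2120 times that of DH-LMP2A, which rests on 19. A count of 0 at the depth of WT replicate 1 allows up to 0.147 CPM before scaling (3 counts).

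Gm12164 (ENSMUSG00000081251.1, chr11:45829319-45829869, plus strand), the other copy, had 3503, 4868 and 3923 counts in kFRA, 240, 232 and 246 CPM. It had 11, 4 and 8 counts in WT and 13, 7 and 3 in DH-LMP2A. The kFRA mean was 565 times the WT mean and 709 times the DH-LMP2A mean, each over 23 counts. Ftl2-ps and Gm12164 thus separated the kFRA libraries from the others by a wider gap than any other member. Ftl2-ps overlaps Mir692-2 and Gm12164 overlaps Gm22751 on the same strand in the table's annotation, and Ftl1 overlaps Gm22133.

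The 3 kFRA mice were alike in the ratio of each copy to Ftl1. For every 100 counts of Ftl1 there were 55.8, 54.5 and 57.0 counts of Ftl2-ps, and 22.9, 21.9 and 21.6 counts of Gm12164. In the other 6 libraries neither copy reached 0.024 counts per 100 of Ftl1. Gm15590 differed in kind: it was present in all libraries, at 4.28 to 4.95 counts per 100 of Ftl1 in WT and DH-LMP2A and at 28.8 to 32.7 in kFRA.

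Sequence matching found 45 genes in GENCODE M21 whose transcripts match Ftl1 in the sense direction over at least 80 bases. Ftl1-ps1, which matches over 910 bases at 99.56% identity, was not found in the table, so no sum below includes it. The table holds 36 of the 45, and 29 of these had under 100 counts over the 9 libraries. The 7 with 100 counts or more were Ftl2-ps, Gm12164, Gm15590, Gm20746, Gm22774, Mir692-1 and Mir692-2, and in each of them all 3 kFRA libraries lay above the other 6. Gm20746 had 44.8 to 66.6 CPM in kFRA and at most 0.382 CPM elsewhere. The annotation Mir692-2, which lies on the end of Ftl2-ps, had 111 to 194 CPM in kFRA and 5.72 to 9.74 CPM elsewhere, and Mir692-1 had 46.9 to 53.6 CPM and at most 0.357 CPM. These microRNA annotations were counted from long-RNA libraries, and their counts are not a measure of a mature microRNA.

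Added together, Ftl1 and its copies gave a different picture from Ftl1 alone. The sum of Ftl1, Ftl2-ps and Gm12164 was 1925 ± 97.6 CPM in kFRA, 2659 ± 385 CPM in WT and 2229 ± 877 CPM in DH-LMP2A (SD, n = 3 each). By this sum kFRA stood at 0.724 of the WT mean, where Ftl1 alone stood at 0.407, and the kFRA libraries still lay below every WT library. Over Ftl1 and all 36 matching genes, the sum was 2531 ± 144 CPM in kFRA, 2795 ± 404 CPM in WT and 2336 ± 915 CPM in DH-LMP2A (SD, n = 3 each). By that wider sum the kFRA libraries overlapped both other genotypes, at 0.906 of the WT mean and 1.08 of the DH-LMP2A mean. Ftl1 made up 42.4, 43.6 and 42.4% of the wider sum's counts in kFRA, 94.9 to 95.3% in WT and 95.1 to 95.5% in DH-LMP2A.

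**Figure D2:**
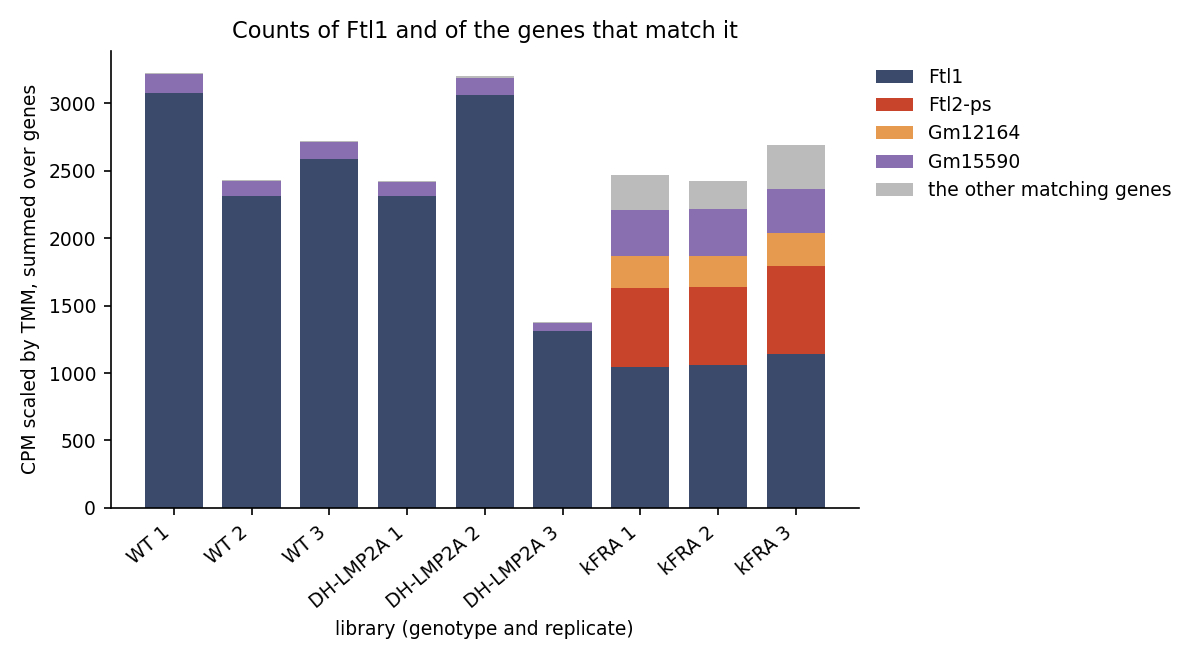
Level of Ftl1 and of the genes that match it in each library (x axis), stacked, in CPM scaled by TMM (y axis); the grey part is the rest of the 36 matching genes. The kFRA bars reach 2427 to 2695 CPM, within the range of the other libraries, but Ftl1 itself fills 42.4 to 43.6% of their counts.

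Pseudogenes as a class did not stand out in the same way. Processed pseudogenes other than the light chain copies took 0.725 to 0.848% of the counts in kFRA, 0.526 to 0.558% in WT and 0.903 to 0.949% in DH-LMP2A. In kFRA against DH-LMP2A, 20 of the 731 that were tested were called higher (2.74%), beside 1.73% of all 14199 genes. In kFRA against WT these were 49 (6.70%), beside 6.68% of all genes, and in DH-LMP2A against WT 51 (6.98%), beside 5.07%. Lower calls numbered 26, 21 and 13 of the 731 in the 3 comparisons, where 3.3, 11.1 and 7.3% of all genes were called lower. Against WT, lower calls were thus less frequent among these pseudogenes than among all genes. Their median log2 fold change was 0.019, 0.194 and 0.135, beside −0.005, −0.038 and −0.008 for all genes. The heavy chain gene also has copies, 7 by the same matching, but the 5 in the table had at most 34 counts each over all 9 libraries. Copies with high counts beside the parent gene, as for the light chain in kFRA, were thus not seen for Fth1.

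Read across the 10 members, edgeR's quasi-likelihood test with Benjamini-Hochberg adjustment over all 14199 genes called 2 in kFRA against DH-LMP2A, Ftl2-ps and Gm12164, where 5.02% of all genes were called (1.73% higher and 3.3% lower). It called 3 in kFRA against WT, the same copies higher and Ftl1 lower, where 17.8% of all genes were called (6.68% higher and 11.1% lower). It called 0 of the 10 in DH-LMP2A against WT (3 at an unadjusted p under 0.05 and 2 by DESeq2), where 12.4% were (5.07% higher and 7.3% lower). The calls fall on the genes that were chosen for their levels, so they add nothing to the values above. The kFRA comparisons share the kFRA libraries, and those against WT share the WT libraries.

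None of the 7 members chosen by role was called by edgeR in any of the 3 comparisons. At an unadjusted p under 0.05, 1 of 7 passed in kFRA against DH-LMP2A (Slc11a2), 1 in kFRA against WT (Fth1) and 3 in DH-LMP2A against WT (Fth1, Slc11a2 and Hmox1), where 22.4, 35.0 and 26.6% of all genes did. DESeq2's Wald test called 1 (Slc11a2), 1 (Fth1) and 2 (Fth1 and Hmox1) of the 7, and 9.9, 24.8 and 17.8% of all genes. The median log2 fold change of the 7 was 0.01 in kFRA against DH-LMP2A, −0.55 in kFRA against WT and −0.51 in DH-LMP2A against WT, and that of all genes tested was between −0.04 and −0.01. The estimate was below 0 for 5 of the 7 in kFRA against WT and for 6 of the 7 in DH-LMP2A against WT.

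**Figure D3:**
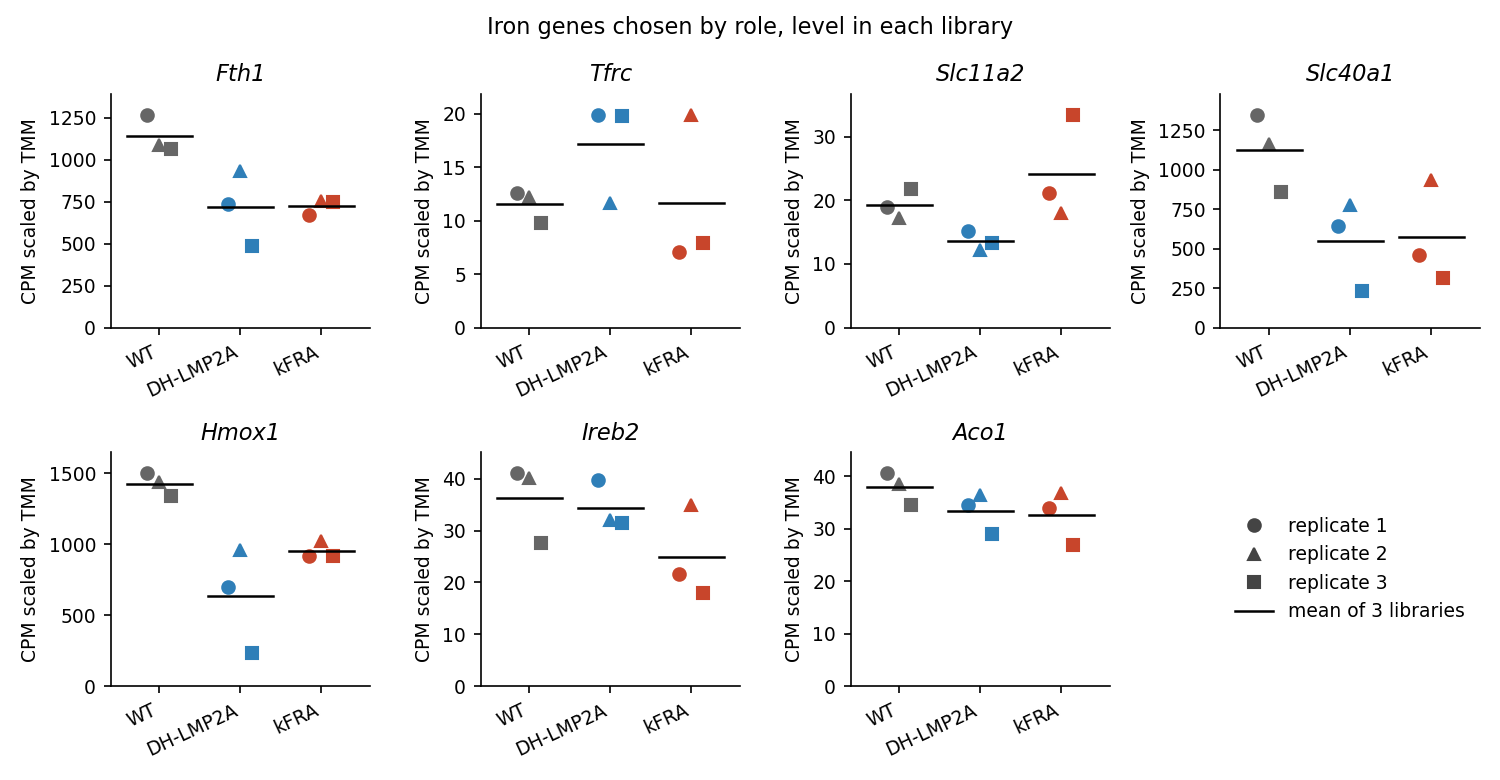
Level of the 7 members chosen by role in each library, in CPM scaled by TMM (y axis, from 0), by genotype (x axis); symbols mark the replicate and the black line the mean of 3 libraries. Fth1 and Hmox1 are higher in all 3 WT libraries than in any other library, and kFRA replicate 2 stands apart in Tfrc, Slc40a1 and Ireb2.

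Fth1 (ENSMUSG00000024661.7, chr19:9982703-9985092, plus strand) encodes the heavy chain, which oxidises ferrous iron so that it can be stored. It was at 1268, 1087 and 1062 CPM in WT, 738, 933 and 486 CPM in DH-LMP2A, and 672, 755 and 751 CPM in kFRA. Every WT library lay above all the others. The log2 fold change was −0.65 (SE 0.23) in kFRA against WT, with an edgeR adjusted p of 0.0817, and −0.66 (SE 0.23) in DH-LMP2A against WT, with an edgeR adjusted p of 0.0998. Neither passed the threshold of 0.05 in edgeR, and both did in DESeq2 (adjusted p of 0.0341 and 0.0273). The 2 genotypes with altered loci differed from each other by 0.01 (SE 0.23, edgeR adjusted p = 0.983).

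Heavy and light chain therefore did not move alike if Ftl1 is read alone: DH-LMP2A and kFRA had nearly the same Fth1 mean, 719 and 726 CPM, while their Ftl1 means were 2229 and 1082 CPM. With the wider light chain sum the kFRA and DH-LMP2A means were 2531 and 2336 CPM. Levels per kilobase used the merged exons of each gene, 1340 bases for Ftl1, 866 for Fth1 and 552 for Ftl2-ps. By these lengths, Ftl1 was the highest member in WT at 1984 ± 288 CPM, followed by Fth1 at 1316 ± 130 CPM (SD, n = 3 each). In kFRA, Ftl2-ps came first at 1094 ± 73.3 CPM per kilobase, and Fth1 (838 ± 54.2) and Ftl1 (808 ± 38.5) did not differ beyond their spread (SD, n = 3 each).

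The hairpin by which iron regulates several of these mRNAs, the iron-responsive element, is shown next because it acts on translation and mRNA decay, and the first of these is not measured by mRNA counts. It was searched on the sense strand of GENCODE M21 transcripts as a C, 5 bases, the loop CAGTGN and 5 bases, the bases on either side of the loop pairing with each other, G with T allowed. This pattern was present in 294 of 21877 protein-coding genes (1.34%). Among the members it was found in Ftl1, Fth1, Slc40a1 and Tfrc. Capitals mark the loop.

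Ftl1, 5′ UTR: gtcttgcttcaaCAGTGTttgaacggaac
Fth1, 5′ UTR: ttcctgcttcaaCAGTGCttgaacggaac
Slc40a1, 5′ UTR: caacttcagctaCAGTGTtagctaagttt
Tfrc, 3′ UTR, element 1: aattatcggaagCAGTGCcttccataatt
Tfrc, 3′ UTR, element 2: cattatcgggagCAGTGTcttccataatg
Tfrc, 3′ UTR, element 3: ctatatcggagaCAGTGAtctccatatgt
Tfrc, 3′ UTR, element 4: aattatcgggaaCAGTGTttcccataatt

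The single match of Ftl1, Fth1 and Slc40a1 lay in the 5′ UTR and the 4 matches of Tfrc in the 3′ UTR. A match is a description of these letters only. The pattern misses elements with another loop or an unpaired base beside it, so a member without a match may still hold an element. Ftl2-ps and Gm12164, as annotated, cover the coding sequence and hold no 5′ UTR.

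Tfrc (ENSMUSG00000022797.16, chr16:32608920-32632794, plus strand), the uptake receptor, was at 12.6, 12.2 and 9.81 CPM in WT, 19.9, 11.7 and 19.8 CPM in DH-LMP2A, and 7.11, 19.8 and 7.90 CPM in kFRA. The kFRA libraries fell apart, replicate 2 lying with the high DH-LMP2A libraries and replicates 1 and 3 below all others. The log2 fold change was −0.55 (SE 0.38, edgeR adjusted p = 0.412) in kFRA against DH-LMP2A, 0.02 (SE 0.38, edgeR adjusted p = 0.982) in kFRA against WT and 0.57 (SE 0.38, edgeR adjusted p = 0.397) in DH-LMP2A against WT. Without kFRA replicate 2 the first of these was −1.13 (SE 0.25) and passed the threshold (edgeR adjusted p = 0.0182), and without kFRA replicate 1 it was −0.30 (edgeR adjusted p = 0.752).

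kFRA replicate 2 also stood apart from the other kFRA libraries in other genes. It was the only kFRA library with a high level of Xist, the RNA of the inactive X chromosome, at 734 CPM against 1.30 and 3.14 CPM. The other genotypes were mixed as well, with Xist at 783, 0.459 and 495 CPM in WT and 924, 882 and 4.49 CPM in DH-LMP2A. The cell division gene Mki67 was at 433 CPM in kFRA replicate 2 and at 115 and 122 CPM in the other kFRA libraries. Mki67 was at 313 to 469 CPM in DH-LMP2A and 219 to 283 CPM in WT. The summed macrophage markers of kFRA replicate 2 were the highest of the 3 kFRA libraries. With Xist as a covariate, the difference of Tfrc between kFRA and DH-LMP2A was −0.51 (SE 0.38). The part of cell division in the Tfrc level was not tested.

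Slc11a2 (ENSMUSG00000023030.16, chr15:100387898-100425072, minus strand), the endosomal transporter, was at 18.9, 17.3 and 21.7 CPM in WT, 15.2, 12.2 and 13.3 CPM in DH-LMP2A, and 21.1, 18.0 and 33.4 CPM in kFRA. DH-LMP2A lay below every library of the other genotypes. kFRA exceeded DH-LMP2A by 0.83 on the log2 scale (SE 0.23), with an edgeR adjusted p of 0.0714. That difference passed the threshold with DESeq2 (adjusted p = 0.0163), with the macrophage covariate (0.87, edgeR adjusted p = 0.0469) and without kFRA replicate 2 (1.07, edgeR adjusted p = 0.0124). It was 0.53 without kFRA replicate 3 (edgeR adjusted p = 0.164), and the adjusted p was 0.134 with only the 6 libraries compared. It was 0.33 (SE 0.22, edgeR adjusted p = 0.321) in kFRA against WT and −0.51 (SE 0.23, edgeR adjusted p = 0.186) in DH-LMP2A against WT. The gene overlaps Gm5475 on the opposite strand, and the strand setting of the counting is not given in the sources used here. Tfrc and Slc11a2, which act in the same endosome, thus had opposite signs in kFRA against DH-LMP2A.

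Slc40a1 (ENSMUSG00000025993.10, chr1:45908068-45926523, minus strand) encodes ferroportin, the exporter of iron. It was at 1347, 1159 and 856 CPM in WT, 642, 774 and 229 CPM in DH-LMP2A, and 462, 934 and 316 CPM in kFRA. WT was above all of DH-LMP2A, and kFRA replicate 2 reached into the WT range. The log2 fold change was −1.03 (SE 0.49, edgeR adjusted p = 0.217) in DH-LMP2A against WT, −0.97 (SE 0.49, edgeR adjusted p = 0.185) in kFRA against WT and 0.06 (SE 0.48, edgeR adjusted p = 0.959) in kFRA against DH-LMP2A. Without kFRA replicate 2, the log2 fold change of kFRA against WT was −1.46 and passed (edgeR adjusted p = 0.0424), and without kFRA replicate 3 it was −0.68 (edgeR adjusted p = 0.441).

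Hmox1 (ENSMUSG00000005413.8, chr8:75093591-75100596, plus strand) encodes heme oxygenase 1, which opens the heme ring and frees its iron. It was at 1501, 1439 and 1339 CPM in WT, 700, 960 and 237 CPM in DH-LMP2A, and 921, 1020 and 918 CPM in kFRA. WT was above all other libraries, and the 3 kFRA libraries lay close together inside the wide DH-LMP2A range or just above it. The log2 fold change was −1.17 (SE 0.40, edgeR adjusted p = 0.0943) in DH-LMP2A against WT, −0.58 (SE 0.40, edgeR adjusted p = 0.319) in kFRA against WT and 0.59 (SE 0.40, edgeR adjusted p = 0.403) in kFRA against DH-LMP2A. In DH-LMP2A against WT it was −1.59 without DH-LMP2A replicate 2 (edgeR adjusted p = 0.0462) and −0.77 without DH-LMP2A replicate 3 (edgeR adjusted p = 0.0621), and DESeq2 called it (adjusted p = 0.0179).

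Slc40a1, Hmox1 and Fth1 are high in red pulp macrophages, and the libraries held RNA of such cells. All 10 macrophage markers were detected in every library, and their summed level was 4328 to 7215 CPM in WT, 1317 to 4098 CPM in DH-LMP2A and 2745 to 4306 CPM in kFRA. Spic, the regulator of red pulp macrophages, was at 106 to 228 CPM in WT, 32.1 to 116 CPM in DH-LMP2A and 65.9 to 129 CPM in kFRA. Within WT and within DH-LMP2A, all 3 genes ranked the libraries in the same order as the macrophage sum. In kFRA, replicate 2 was the highest for the markers and for each of the 3 genes. In bulk RNA of this kind, fewer macrophages and less of these mRNAs per macrophage cannot be told apart.

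**Figure D4:**
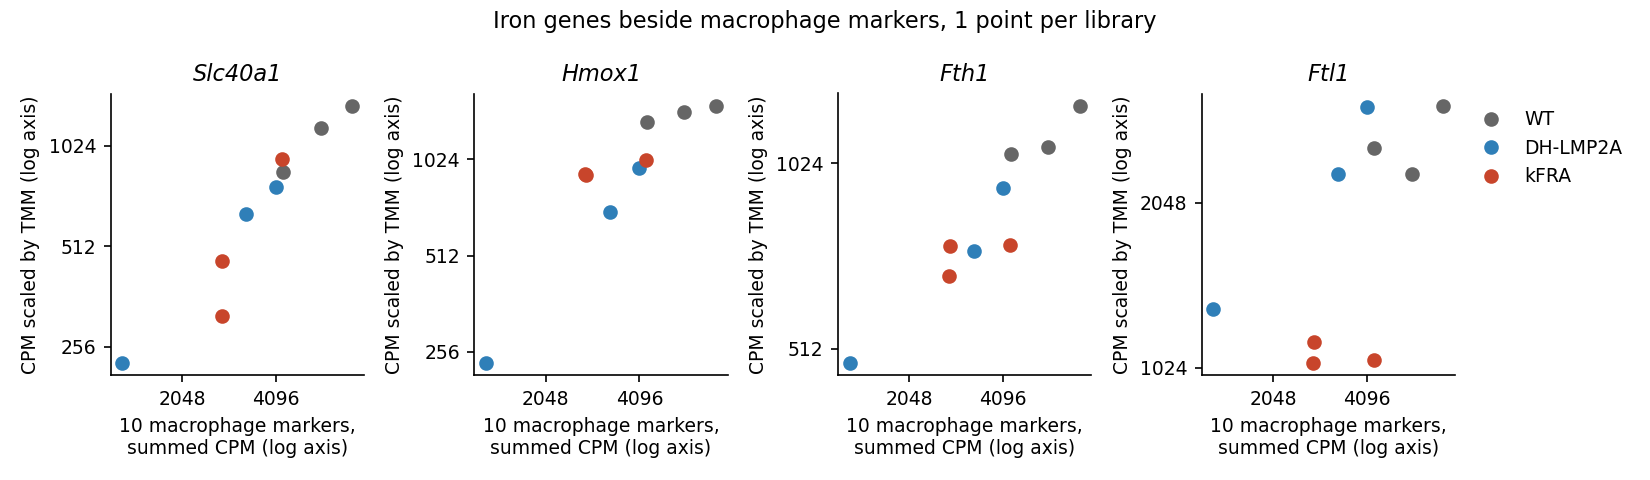
Level of Slc40a1, Hmox1, Fth1 and Ftl1 (y axis, CPM scaled by TMM, log axis) against the summed level of 10 macrophage markers (x axis, CPM, log axis), 1 point per library, coloured by genotype. The first 3 genes rise with the markers across the 9 libraries, and in the Ftl1 panel the kFRA libraries, at 1046 to 1141 CPM, lie below libraries with a like marker sum.

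With the mean log2 CPM of the macrophage markers as a covariate the differences from WT became smaller or changed sign. Slc40a1 went to −0.02 (SE 0.24) in kFRA against WT and to 0.22 (SE 0.28) in DH-LMP2A against WT, and Hmox1 to 0.25 (SE 0.29) and −0.29 (SE 0.31). For Fth1 the values were −0.25 (SE 0.20) and −0.18 (SE 0.22). The erythroid markers ran the other way, with a summed level of 53.1 to 349 CPM in WT, 1164 to 2789 CPM in kFRA and 2540 to 13480 CPM in DH-LMP2A. Neither the macrophage nor the erythroid sums of WT overlapped those of the other genotypes. Adjustment for these markers can therefore not be separated from the difference between WT and the other genotypes. DH-LMP2A replicate 3, the highest of all in erythroid and the lowest in macrophage markers, was also the lowest of the 9 libraries in Fth1, Slc40a1 and Hmox1.

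The genes most like Slc40a1 over the 9 libraries, by Pearson's r of log2 CPM among 9632 genes, were Itgb5 (0.989), Axl (0.988), Mertk (0.988), Dse (0.985) and Sash1 (0.985). Axl and Mertk are receptors for the uptake of dying cells, and Mertk is in the macrophage list. For Tfrc they were Desi2 (0.960), Rnpc3 (0.945), Slc25a37 (0.935), Tmem29 (0.930) and Ube2d3 (0.924). Slc25a37 is mitoferrin, which carries iron into mitochondria. For Ftl2-ps they were Gm6394 (0.993), Gm6472 (0.988), BC018473 (0.987), Mir692-2 (0.985) and Gm20746 (0.985), followed by Gm12164 (0.984), and Ftl1 had −0.84. Gm6394, a processed pseudogene on chromosome 3 that does not match Ftl1, was at 28.9 to 36.2 CPM in kFRA and at most 0.275 CPM elsewhere. These values describe 9 libraries in 3 genotypes, and for Ftl2-ps they reflect a gap between kFRA and the rest more than a graded relation.

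Ireb2 (ENSMUSG00000032293.8, chr9:54863755-54912534, plus strand) encodes IRP2, the sensor that is degraded when iron is plentiful. It was at 41.1, 40.2 and 27.7 CPM in WT, 39.7, 32.2 and 31.4 CPM in DH-LMP2A, and 21.6, 35.0 and 17.9 CPM in kFRA. kFRA replicates 1 and 3 were the lowest of all libraries, and replicate 2 lay among the others. The log2 fold change was −0.55 (SE 0.26, edgeR adjusted p = 0.159) in kFRA against WT, −0.47 (SE 0.25, edgeR adjusted p = 0.30) in kFRA against DH-LMP2A and −0.08 (SE 0.25, edgeR adjusted p = 0.894) in DH-LMP2A against WT. Without kFRA replicate 2 both kFRA differences passed, at −0.81 (edgeR adjusted p = 0.0156) and −0.74 (edgeR adjusted p = 0.0324). Without kFRA replicate 3 they were −0.36 (edgeR adjusted p = 0.410) and −0.28 (edgeR adjusted p = 0.640).

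Aco1 (ENSMUSG00000028405.9, chr4:40143081-40198338, plus strand) encodes IRP1, which works as cytosolic aconitase when it holds an iron-sulfur cluster. It varied little, at 40.5, 38.5 and 34.5 CPM in WT, 34.5, 36.4 and 28.9 CPM in DH-LMP2A, and 33.9, 36.8 and 26.8 CPM in kFRA. The genotypes overlapped in all comparisons. The log2 fold change was −0.22 (SE 0.15, edgeR adjusted p = 0.324) in kFRA against WT, −0.19 (SE 0.15, edgeR adjusted p = 0.500) in DH-LMP2A against WT and −0.03 (SE 0.15, edgeR adjusted p = 0.920) between kFRA and DH-LMP2A. Per kilobase of merged exon, the 2 sensors were of like level in WT, 8.41 ± 0.69 CPM for Aco1 and 6.25 ± 1.29 CPM for Ireb2. Slc11a2 followed at 3.04 ± 0.35 CPM and Tfrc at 1.87 ± 0.25 CPM (SD, n = 3 each).

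**Figure D5:**
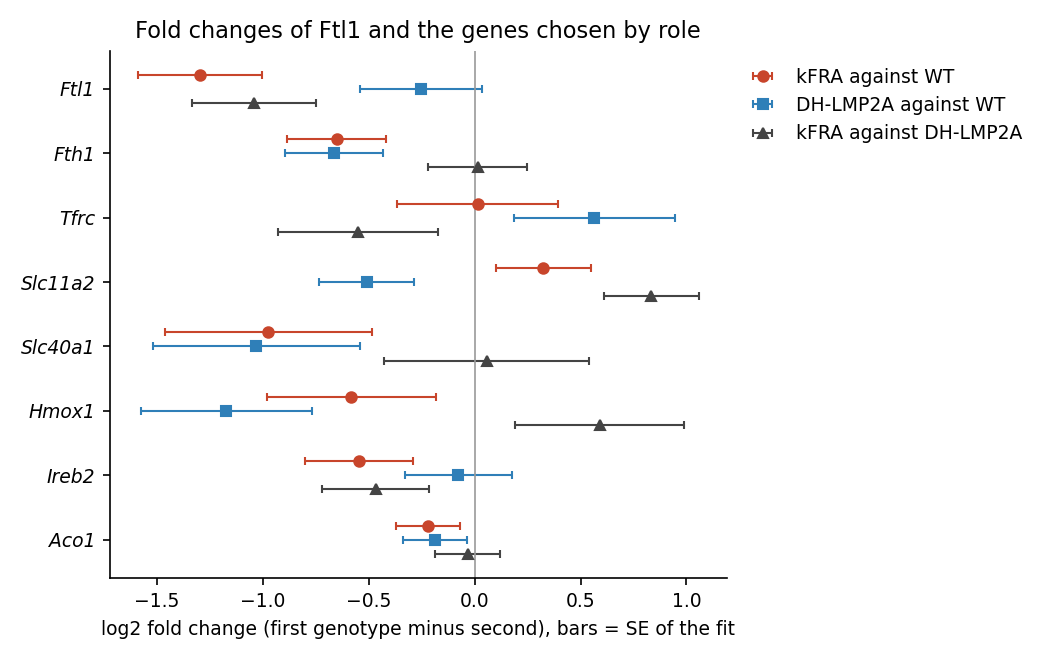
Log2 fold change of Ftl1 and of the 7 members chosen by role (x axis, first genotype minus second; bars are the SE of the fit) in the 3 comparisons. Ftl1 lies at −1.30 in kFRA against WT and at −1.04 in kFRA against DH-LMP2A, and Aco1 lies between −0.22 and −0.03 in all 3.

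Other genes of iron handling, 82 in lists by role, were read in the same fit. Of these, 80 were in the table and 71 were tested. In kFRA against DH-LMP2A, edgeR called 0 higher and 1 lower (1.41%, beside 5.02% of all genes). At an unadjusted p under 0.05 there were 21 of the 71, 16 of them higher, where 22.4% of all genes passed. DESeq2 called 12, 9 of them higher, where it called 9.9% of all genes. In kFRA against WT, 6 were called higher and 6 lower (16.9%, beside 17.8%), and in DH-LMP2A against WT, 4 higher and 6 lower (14.1%, beside 12.4%). The shares called by edgeR lie near or below those of all genes. In kFRA against DH-LMP2A, the shares by DESeq2 and at an unadjusted p lie above those of all genes. Without kFRA replicate 2, 18 were called in kFRA against DH-LMP2A and 31 in kFRA against WT, where all genes also gave more calls (3299 and 5632 in place of 713 and 2523).

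Among uptake genes, Hfe, a partner of the transferrin receptor, was lower in DH-LMP2A than in WT (log2 fold change −1.43, SE 0.35, edgeR adjusted p = 0.0292), at 33.7 ± 15.1 against 90.7 ± 20.9 CPM (SD, n = 3 each). The ferric reductase gene Cybrd1 had 39, 15 and 20 counts in WT, 5, 11 and 6 in DH-LMP2A, and 4, 2 and 4 in kFRA, and was called lower in both against WT (edgeR adjusted p of 0.0308 and 0.0112). Steap4, another metalloreductase gene, had 23, 405 and 108 counts in WT and 3, 1 and 3 in kFRA, and was called lower in kFRA (edgeR adjusted p = 0.0179), with no fold given because of the few kFRA counts. The WT level rested most on replicate 2, and the call was lost without it (edgeR adjusted p = 0.0551). Granulocyte markers summed to 256 to 822 CPM in WT and 8.76 to 27.7 CPM in kFRA, and their part in the Steap4 result was not tested.

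Pcbp3, of the family of iron chaperones that load ferritin, was called higher than in WT in kFRA (2.56, SE 0.53, edgeR adjusted p = 0.0110) and in DH-LMP2A (2.30, SE 0.52, edgeR adjusted p = 0.0207), at low levels of 5 to 71 counts per library. Cp, ceruloplasmin, which oxidises iron as it leaves ferroportin, fell in both: it had 225, 172 and 144 counts in WT, 21, 42 and 4 in DH-LMP2A and 18, 45 and 32 in kFRA. Its log2 fold change against WT was −3.28 (SE 0.58, edgeR adjusted p = 0.00656) in DH-LMP2A and −2.43 (SE 0.56, edgeR adjusted p = 0.0176) in kFRA. Fbxl5, the ubiquitin ligase subunit that directs IRP2 to degradation when iron is plentiful, was lower in kFRA than in WT (log2 fold change −0.86, SE 0.21, edgeR adjusted p = 0.0221), at 20.4 ± 4.05 against 36.9 ± 8.88 CPM (SD, n = 3 each).

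Of the 13 further genes of heme synthesis and breakdown, 4 rose and 1 fell in kFRA against WT, and 2 rose and 3 fell in DH-LMP2A against WT. This was 38.5% of the list in each, beside 17.8 and 12.4% of all genes. Alas2, the first enzyme of heme synthesis in red cell precursors, had log2 fold changes of 5.04 (SE 0.85, edgeR adjusted p = 0.00513) in DH-LMP2A and 3.33 (SE 0.81, edgeR adjusted p = 0.0215) in kFRA. The erythroid sums given above were also higher in these libraries. Alad, the next enzyme, was higher in DH-LMP2A than in WT (1.12 as log2, SE 0.21, edgeR adjusted p = 0.00861) and lower in kFRA than in DH-LMP2A (−1.02, SE 0.21, edgeR adjusted p = 0.0244). Ppox, a later enzyme, rose in kFRA against WT by 0.97 (SE 0.19, edgeR adjusted p = 0.00869). Blvra, which reduces the biliverdin that heme oxygenase forms, was lower in DH-LMP2A than in WT (log2 fold change −1.03, SE 0.25, edgeR adjusted p = 0.0247). With the erythroid markers as a covariate, 2 of the 71 iron genes were called in kFRA against WT and 0 in DH-LMP2A against WT. The share of all genes called fell as well, to 5.13 and 1.85%. With the macrophage markers instead, 3 of the 71 were called in each comparison. All genes then gave 1367 and 824 calls, in place of 2523 and 1756. Neither the erythroid nor the macrophage sums of WT overlapped those of the other genotypes, so these covariates cannot be separated from genotype. Hfe and Blvra, like the macrophage sum, were lowest of the 9 libraries in DH-LMP2A replicate 3, and the part of macrophages in their calls was not tested.

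Many of these calls rested on single libraries. With each library left out in turn, Cybrd1, Pcbp3 and Ppox in kFRA against WT, and Cp, Alas2 and Alad in DH-LMP2A against WT, were called in all 6 refits. Steap4 in kFRA against WT was also lost without kFRA replicate 1 or 3. In DH-LMP2A against WT, Hfe was lost without DH-LMP2A replicate 1 or WT replicate 1 or 2, and Blvra without WT replicate 1 or 2. Cybrd1 in that comparison was lost without DH-LMP2A replicate 1 or 3 or WT replicate 1 or 3, and Pcbp3 without DH-LMP2A replicate 3 or WT replicate 1 or 3. In kFRA against WT, Cp was lost without WT replicate 1 or kFRA replicate 1 or 3, Fbxl5 without WT replicate 1 or 2 or kFRA replicate 1 or 3, and Alas2 without WT replicate 1 or 2 or kFRA replicate 3. Alad in kFRA against DH-LMP2A was called in 1 of 6 refits, the one without kFRA replicate 2. No sign changed, and the highest edgeR adjusted p among these refits was 0.124, for Cybrd1.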

How the data were processed

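Per the file headers, the deposited table gives raw counts of reads for each gene in the 9 libraries, with merged exon coordinates. STAR 2.4.0a, featureCounts from Subread 1.5.0-p3, DESeq2 and the builds mm10 and GRCm38 are named in the submitters' processing notes; the strand setting and the handling of reads that fit several places are not given in the sources used here. All 9 columns were used, and all sit on the table's own coordinates, of which 99.85% of 44038 uniquely named genes overlapped their GENCODE M21 span. Total counts were 15449026 to 21558128 per library, so that 3 counts, taken as the floor, were 0.139 to 0.194 CPM. This floor covers counting error only, while the SDs and SEs include the spread between mice.

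The counts were tested with edgeR 4.0.16 (R 4.3.3): filterByExpr within groups (14199 genes left), TMM scaling, a quasi-likelihood fit with 1 coefficient per genotype over all 9 libraries, 2-sided F tests and Benjamini-Hochberg adjustment with a threshold of 0.05. The SE is the log2 fold change divided by the square root of F. Replicates are different mice and differed by more than sampling noise (chi-square per degree of freedom at least 18.77). Sequence matches were found with BLAST+ 2.17.0 and substitutions with Biopython 1.88; figures were drawn with matplotlib 3.10.9. The model was checked on simulated data. Some genes and sequences that these rules select are not reported here.

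The members, the gene lists and the marker lists were chosen with earlier results of these data known. All 10 members are named whatever their values; of each list, up to 3 called genes with the smallest p-value per comparison; the genes of the table that match Ftl1 or Fth1; and for Ftl2-ps, Tfrc and Slc40a1 the 5 genes other than immunoglobulin genes, with a mean of at least 5 CPM, whose log2 CPM (prior count of 2) correlated best. Alternatives were DESeq2's size factors and Wald test (DESeq2 1.42.0), library size alone, no filter, a minimum mean of 5 CPM, dropping immunoglobulin genes, only the 6 libraries compared, the replicate number as a block, macrophage or erythroid markers as covariates, and leaving out each replicate. An Xist covariate and the sum over all matching genes were added after seeing the data.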

Additional observations from a re-analysis of the deposited data

How the results depend on the processing

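Of 357 refits of the 7 members chosen by role, 310 kept direction and side of the threshold, 34 changed sign and 13 newly passed it; the cause was not tested. Genes past the threshold in kFRA against DH-LMP2A were 713, and 1405 with DESeq2's Wald test, 475 with erythroid and 1072 with macrophage markers as a covariate, and 352 to 3299 with a replicate left out. In kFRA against WT they were 2523, and 729, 1367 and 1271 to 5632 with the same covariates and omissions; in DH-LMP2A against WT 1756, and 262, 824 and 932 to 1408, and 1094 at a mean of at least 5 CPM. The most calls in both kFRA comparisons came without kFRA replicate 2. Other iron genes went from 1 to 12 (DESeq2), 2 (only the 6 libraries compared), 6 (macrophage covariate) and 0 to 18 (a replicate left out) in kFRA against DH-LMP2A, from 12 to 19 (DESeq2), 2 (erythroid), 3 (macrophage) and 4 to 31 in kFRA against WT, and from 10 to 0 (erythroid), 3 (macrophage) and 5 to 11 in DH-LMP2A against WT.

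With library size alone the median log2 fold change of all genes moved to −0.136, 0.174 and 0.334 in the 3 comparisons, and higher genes were 26.0, 72.0 and 79.9% of the calls in place of 34.4, 37.6 and 41.0%; fold changes against WT are read relative to that shift. The log2 ratio of the summed light chain in kFRA against WT was −0.466, and −0.271 with library size alone and −0.143 over all matching genes. With a replicate left out it was −0.556 to −0.348, against −0.482 to 0.086 in kFRA against DH-LMP2A and −0.552 to 0.016 in DH-LMP2A against WT.

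Signs changed in kFRA against DH-LMP2A for Fth1 (−0.132 with library size alone, −0.008 with no filter, −0.072 and −0.067 with erythroid and macrophage covariates, −0.162 to 0.286 with a replicate left out), Slc40a1 (−0.013 with library size alone, −0.238 with the macrophage covariate, −0.439 to 0.414 with a replicate left out, −0.282 of these without DH-LMP2A replicate 3) and Aco1 (0.001 without immunoglobulin genes, 0.024 with Xist, −0.088 to 0.088 with a replicate left out). In kFRA against WT they changed for Tfrc (−0.638 with the erythroid covariate, −0.554 to 0.270 with a replicate left out), Hmox1 (0.254 and 0.251 with erythroid and macrophage covariates) and Aco1 (0.000 with library size alone, 0.010 and 0.001 with the covariates). In DH-LMP2A against WT they changed for Tfrc (−0.215, erythroid), Slc40a1 (0.218, macrophage), Ireb2 (0.246 with library size alone, 0.009 and 0.366 with the covariates, −0.240 to 0.018 with a replicate left out) and Aco1 (0.153, 0.101 and 0.107).

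Libraries with the same replicate number share only that number: the correlations of their deviations from the group means were −0.211 to 0.196, and not every library correlated best with its own number. With the replicate number as a block, 685, 2930 and 2067 genes passed, Tfrc in kFRA against WT was −0.043, and Slc40a1 passed against WT in kFRA (−1.11, edgeR adjusted p = 0.0333) and DH-LMP2A (−1.20, edgeR adjusted p = 0.0319). In DH-LMP2A against WT, Ftl2-ps and Gm12164 were not fitted when only those 6 libraries were used, since both fell under the filter.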

Other observations

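Iron-sulfur cluster assembly, which uses iron inside mitochondria and the cytosol, was read from lists of 20 and 9 genes, all tested. Between kFRA and DH-LMP2A, the mitochondrial list had a median log2 fold change of 0.35 and the cytosolic list one of 0.33, beside −0.01 for all genes tested, and 15 of 20 and 9 of 9 estimates were above 0, but edgeR called 0 genes of either list, beside 5.02% of all genes. At an unadjusted p under 0.05 there were 7 and 4, all higher, where 22.4% of all genes passed in either direction, and DESeq2 called 4 and 2, where it called 9.9% of all genes. Relative to WT, both lists had a median of 0.25 in kFRA, and −0.05 and −0.09 in DH-LMP2A. Ciapin1, a cytosolic assembly factor, was called higher than in WT in kFRA (1.34, SE 0.19, edgeR adjusted p = 0.00159) and in DH-LMP2A (1.28, SE 0.19, edgeR adjusted p = 0.00244). Its level was 14.1, 14.3 and 16.1 CPM in WT, 35.8, 34.8 and 37.7 CPM in DH-LMP2A, and 40.9, 26.5 and 45.0 CPM in kFRA. Iba57, a mitochondrial assembly factor, was lower in kFRA than in WT (−0.61, SE 0.16, edgeR adjusted p = 0.0326), at 5.80 ± 0.58 against 8.87 ± 0.72 CPM (SD, n = 3 each), and was called in 1 of 6 refits with a library left out, the one without kFRA replicate 2.

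The iron-responsive element pattern was found in 7 genes of the iron lists in all. Besides the 4 members these were Alas2, whose 5′ UTR element is well known, Bola3 in the 3′ UTR and Keap1 within the coding sequence.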
